A study of Homo sapiens with 6 samples.

Results

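HOXA3, HOXA4, HOXA5, HOXA6, HOXA7, HOXA9, HOXA10 and HOXA11, together with MEIS1 and PBX3, were described in THP1, a human line of acute monocytic leukemia that carries a fusion of the MLL gene (KMT2A) with MLLT3. These 10 genes are known targets of MLL fusion proteins and were taken by name as a given list, out of 34905 genes with a transcript in the deposited tables. Polyadenylated RNA was sequenced in 6 libraries, 2 in each of 3 groups. The A5-res libraries have the genotype label ALKBH5 rescue, the shA5 libraries ALKBH5 knock-down and the shCtrl libraries wild-type, and the titles number the libraries of each group 1 and 2. The labels do not say whether the rescue cells also carry the knock-down construct, and they name neither a clone nor a time after the construct was introduced. Whether the libraries of a group, or those of a replicate number, stem from cultures grown apart is not stated either. The spread behind each p-value may thus be technical. The comparisons address how the RNA of these genes differed with the ALKBH5 genotype label and with the replicate number. ALKBH5 is a demethylase of N6-methyladenosine in RNA.

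Total estimated counts were 14534386 to 24857373 per library. ALKBH5 itself followed the replicate number and not the group label. It stood at 968, 1003 and 1097 CPM (counts scaled to the TMM-adjusted library size) in the number 2 libraries labelled A5-res, shA5 and shCtrl, against 13.6, 12.4 and 14.6 CPM in the number 1 libraries labelled A5-res, shA5 and shCtrl. The first principal component, with 65.3% of the variance, also separated number 2 from number 1. Groups are therefore named below by their labels only, and values per library are given by replicate number. All 12 monocytic and myeloid markers were present, with a summed level of 3213 to 3902 TPM (the deposited level per length, summed per gene). Erythroid and megakaryocyte markers summed to 0.18 to 1.47 TPM, with 4 of 7 at 0 counts in all libraries, T and NK markers to 32.9 to 45.5 TPM (2 of 8 at 0), B markers to 7.41 to 12.1 TPM, and epithelial and fibroblast markers to 2.63 to 4.09 TPM (2 of 8 at 0). Most of the T and NK sum was NKG7, at 30.3 to 43.2 TPM.

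HOX genes encode homeodomain transcription factors that set position along the body axis in the embryo and are ordered along each cluster from anterior to posterior numbers. In blood, HOXA5 to HOXA10 are active in stem and progenitor cells and are turned down as cells mature. HOXA9 binds DNA together with the homeodomain proteins of the PBX and MEIS families, which form the TALE class. MLL fusion proteins keep HOXA genes and MEIS1 transcribed in leukemia, and HOXA9 and MEIS1 together are known to transform mouse marrow cells.

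The promoter windows of HOXA9, HOXA10 and HOXA11, the 3 cluster genes with the highest levels below, are shown because they mark where the main transcripts begin. That of MEIS1, which was nearly silent, is shown beside them. The only transcript with counts that starts near the MEIS1 window is MEIS1-211, with 3 counts in all. Each window is the 250 bases before a RefSeq start on GRCh38.p14, read 5′ to 3′ on the strand of the gene. In GENCODE coordinates the HOXA genes run on the minus strand of chromosome 7 from 27106184 (the end of HOXA3) to 27185223 (the start of HOXA11), MEIS1 lies on chromosome 2 from 66433452 to 66573869 and PBX3 on chromosome 9 from 125747345 to 125967377, both on the plus strand. The HOXA9 window lies at chr7:27165538-27165787, HOXA10 at chr7:27174321-27174570 and HOXA11 at chr7:27185233-27185482, all on the minus strand, and MEIS1 lies at chr2:66434875-66435124 on the plus strand. Capitals mark the searched motifs TGATTTAC (bound by HOXA9 with PBX), TGACAG (MEIS), CCAAT (the CCAAT box), TATAAA (the TATA box) and CACGTG (an E-box), on either strand, so TTTATA and ATTGG are matches on the opposite strand.
HOXA9: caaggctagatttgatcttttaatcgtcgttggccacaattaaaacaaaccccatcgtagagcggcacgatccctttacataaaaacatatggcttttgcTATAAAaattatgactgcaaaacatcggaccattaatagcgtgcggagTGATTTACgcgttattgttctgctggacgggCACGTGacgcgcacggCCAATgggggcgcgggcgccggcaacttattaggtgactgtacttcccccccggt
HOXA10: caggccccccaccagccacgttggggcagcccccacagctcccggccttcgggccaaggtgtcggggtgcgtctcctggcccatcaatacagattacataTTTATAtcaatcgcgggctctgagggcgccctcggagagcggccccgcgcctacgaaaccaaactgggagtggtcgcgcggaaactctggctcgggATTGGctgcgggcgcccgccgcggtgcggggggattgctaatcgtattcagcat
HOXA11: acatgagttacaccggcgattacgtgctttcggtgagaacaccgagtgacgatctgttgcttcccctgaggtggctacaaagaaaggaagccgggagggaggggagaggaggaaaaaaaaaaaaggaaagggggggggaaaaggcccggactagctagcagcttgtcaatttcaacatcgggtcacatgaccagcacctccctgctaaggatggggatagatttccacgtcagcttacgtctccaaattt
MEIS1: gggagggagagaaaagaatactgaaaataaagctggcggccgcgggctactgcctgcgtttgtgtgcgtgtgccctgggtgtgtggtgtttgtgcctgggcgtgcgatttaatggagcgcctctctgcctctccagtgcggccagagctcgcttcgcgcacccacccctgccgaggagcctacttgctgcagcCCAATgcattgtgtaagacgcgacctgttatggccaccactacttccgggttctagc
The HOXA9 window held TGATTTAC 102 bases before the start, TATAAA 150 bases, CACGTG 71 bases and CCAAT 55 bases before it, with no overlap between them. Of 35116 RefSeq windows of 250 bases, 0.555% held TGATTTAC, 13.0% TGACAG, 32.0% CCAAT, 10.7% TATAAA and 6.34% CACGTG. None of these motifs occurred in the HOXA11 window, and TGACAG occurred in none of the 4 windows printed. A RefSeq window was at hand for 9 of the 10 genes, the other being HOXA5. The matches describe the letters only.

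Measured per length and summed over all transcripts of a gene, HOXA9 had the highest level of the 10 genes. PBX3, HOXA10 and HOXA11 followed, and the ranges of these 4 did not overlap. HOXA9, the cluster gene most often tied to MLL-rearranged leukemia, had a median of 117 TPM over the 6 libraries (103 to 130). PBX3, its DNA-binding partner, had a median of 79.5 TPM (61.6 to 85.4). HOXA10, a posterior neighbor of HOXA9 that is also active in myeloid progenitors, had 46.7 TPM (43.0 to 49.9). The order of PBX3 and HOXA10 depends on the transcripts counted. The noncoding PBX3-211, of 425 bases and with 4.47% of PBX3 counts, added 19.1 to 31.5 TPM. PBX3-202, annotated for nonsense-mediated decay, added 15.3 to 20.0 TPM. The largest coding transcripts were at 20.0 to 22.9 TPM for PBX3 (PBX3-201) and 32.1 to 34.6 TPM for HOXA10 (HOXA10-201). HOXA11, best known from limb and uterus development, had 15.8 TPM (12.6 to 19.2). The 5 genes on the anterior side of HOXA9 were far lower. HOXA7 had a median of 3.18 TPM (1.54 to 4.13), below HOXA11 in every library. HOXA5 had 2.40 TPM (0.63 to 2.71), HOXA6 1.51 TPM (1.22 to 2.15), HOXA4 1.11 TPM (0.64 to 1.86) and HOXA3 0.71 TPM (0.15 to 1.43). Of the HOXA5 level, 0 to 1.64 TPM came from the noncoding HOXA5-202, which held 5.39% of HOXA5 counts. From HOXA7 downward, the ranges of neighbors in this order overlapped, so the order of HOXA7, HOXA5, HOXA6, HOXA4 and HOXA3 is not fixed by these libraries.

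**Figure D1:**
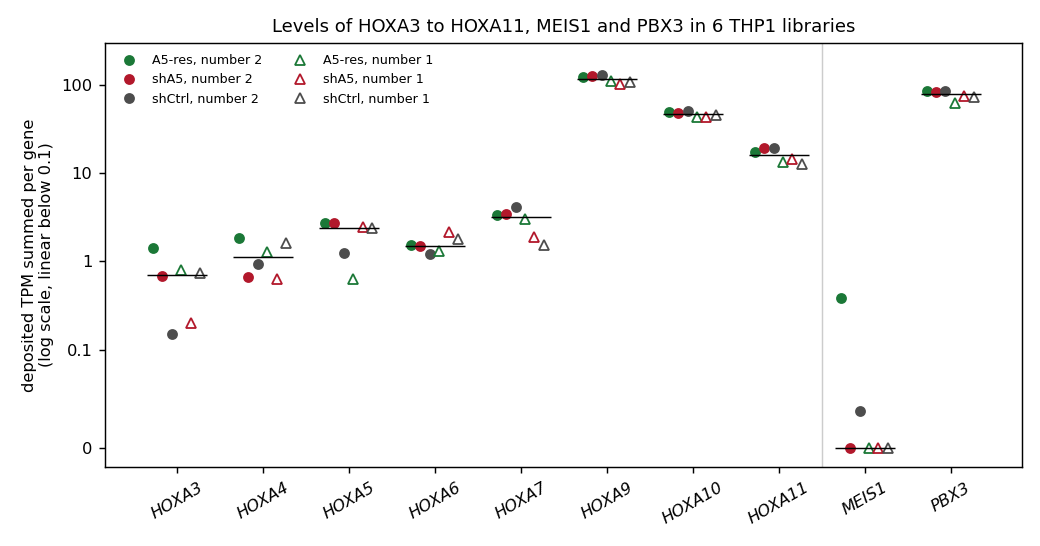
Deposited TPM summed per gene for the 10 genes in each library, on a log axis that is linear below 0.1 TPM; filled circles are number 2, open triangles number 1, colors the group labels, and the bar is the median of 6 libraries. HOXA9, PBX3, HOXA10 and HOXA11 form the high end (medians of 117, 79.5, 46.7 and 15.8 TPM), and MEIS1 is at 0 in 4 libraries.

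MEIS1, the usual partner of HOXA9 in mouse models of leukemia, was listed at 3, 0 and 1 estimated counts in the number 2 libraries of A5-res, shA5 and shCtrl. It was at 0 counts in the number 1 libraries of A5-res, shA5 and shCtrl. At these depths, 3 counts in a library correspond to 0.130 to 0.217 CPM. The upper end of a 95% Poisson interval for a count of 0 is 3.69 counts. That is 0.160 to 0.267 CPM in the libraries at 0. The upper end was 0.296 CPM for shCtrl number 2 and 0.539 CPM for A5-res number 2. These limits cover counting error only. All MEIS1 counts sat on MEIS1-211 and MEIS1-214, both annotated as retained introns. MEIS1 did not pass the filter on low counts and was not tested, while the other 9 genes passed. In bulk RNA, fewer cells with a transcript and less RNA per cell cannot be told apart.

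Other members of the TALE class were present. PBX2 was at 13.0 to 20.1 TPM, MEIS2 at 9.77 to 17.2 TPM and MEIS3 at 3.01 to 7.67 TPM. TGIF1, a repressor of the same class, was at 29.5 to 38.6 TPM. Among other HOX genes, 17 had 0 counts in every library, including 8 of the 9 HOXD genes. Genes outside the list that reached 1 TPM included HOXA13 (3.04 to 6.96 TPM), HOXB3 (2.81 to 5.76 TPM) and HOXB4 (0.72 to 1.52 TPM). HOXA13, at the posterior end of the cluster, thus lay below HOXA11 in level, as HOXA7 did.

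The levels of HOXA9, HOXA10 and PBX3 varied little between libraries. On the CPM scale, which is not divided by length, HOXA9 was at 74.9, 78.4 and 76.7 CPM in the number 2 libraries of A5-res, shA5 and shCtrl, and at 72.1, 73.2 and 67.9 CPM in the number 1 libraries. All 6 values lay within 67.9 to 78.4 CPM, and the coefficient of variation was 5.02%. HOXA10 was at 71.0, 69.8 and 79.1 CPM in the number 2 libraries of A5-res, shA5 and shCtrl, and at 78.1, 72.5 and 74.6 CPM in the number 1 libraries. The numbers overlapped, and the coefficient of variation was 5.14%. PBX3 was at 87.0, 82.7 and 81.9 CPM in the number 2 libraries of A5-res, shA5 and shCtrl, and at 72.1, 76.2 and 74.4 CPM in the number 1 libraries. Its coefficient of variation was 7.24%, and the lowest number 2 library lay above the highest number 1 library.

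HOXA11 and HOXA7 were more spread. HOXA11 was at 27.2, 30.8 and 33.2 CPM in the number 2 libraries of A5-res, shA5 and shCtrl, and at 25.1, 25.1 and 22.3 CPM in the number 1 libraries. HOXA7, which is linked to immature myeloid cells in mouse models, was at 3.08, 3.04 and 3.62 CPM in the number 2 libraries of A5-res, shA5 and shCtrl, and at 2.48, 1.89 and 1.74 CPM in the number 1 libraries. In both genes every number 2 library was higher than every number 1 library, and the step was widest within shCtrl and narrowest within A5-res. Within A5-res, shA5 and shCtrl the log2 difference of number 2 from number 1 was 0.30, 0.66 and 1.01 in HOXA7 and 0.11, 0.29 and 0.57 in HOXA11, each from 1 library against 1. HOXA5, known to favor the myeloid over the erythroid fate in human progenitors, was at 1.66, 1.52 and 1.49 CPM in the number 2 libraries of A5-res, shA5 and shCtrl, and at 0.825, 1.09 and 1.23 CPM in the number 1 libraries. HOXA6 was the reverse in order, at 0.738, 0.735 and 0.639 CPM in the number 2 libraries and 0.738, 1.20 and 1.01 CPM in the number 1 libraries, with the A5-res pair equal to 3 digits and ordered only by the digits beyond. HOXA4 was at 1.23, 0.787 and 0.958 CPM in the number 2 libraries of A5-res, shA5 and shCtrl, and at 1.22, 0.571 and 1.37 CPM in the number 1 libraries. The lowest value of HOXA4 within each number was the shA5 library. HOXA3, needed for the pharyngeal organs of the mouse embryo, ranged from 0.319 to 0.861 CPM, which is 6 to 14 counts per library, with overlap between all groups and both numbers.

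**Figure D2:**
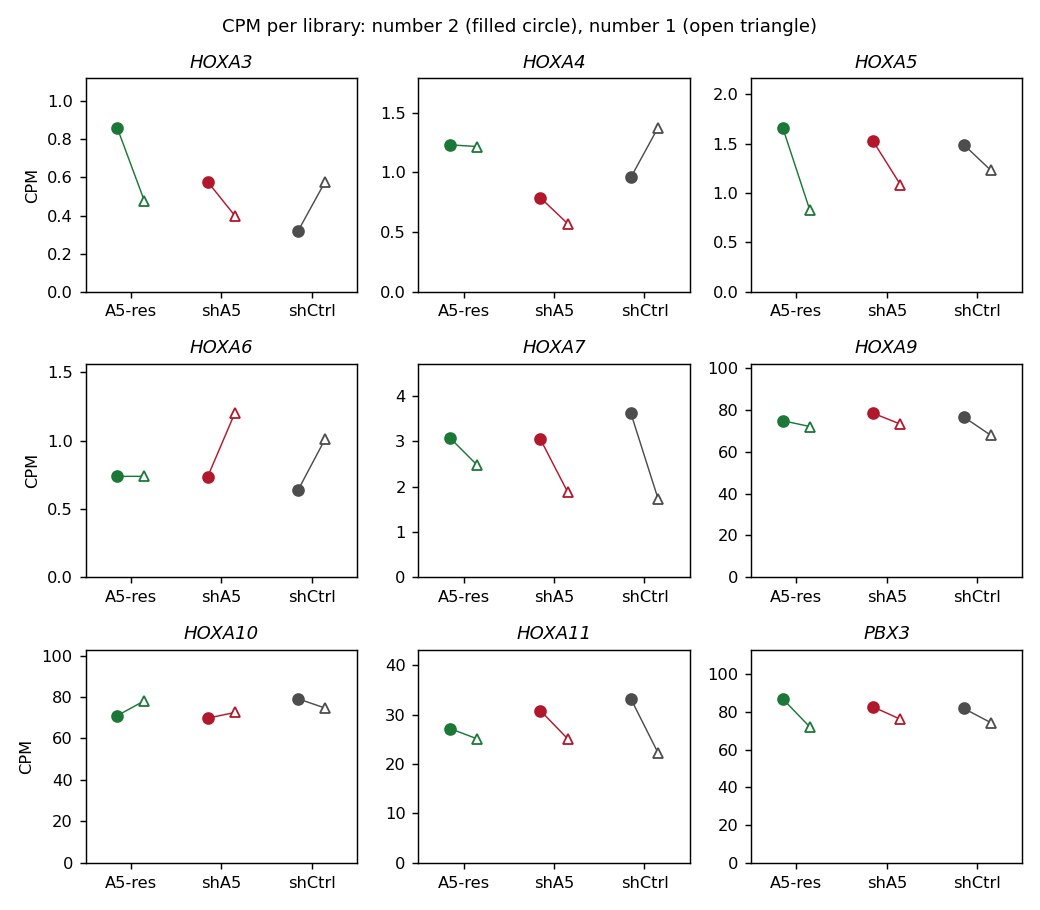
CPM of the 9 tested genes by group label, each panel from 0; a filled circle is the number 2 library and an open triangle the number 1 library, joined within a group. HOXA9 and HOXA10 stay between 67.9 and 79.1 CPM in all 6 libraries, while HOXA7 and HOXA11 are higher in number 2 within each group.

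Between number 2 and number 1, HOXA7 and HOXA11 passed the test as higher in number 2, and no member passed as lower. In the edgeR quasi-likelihood test with group and number in one fit, and Benjamini-Hochberg adjustment over 14497 genes, 2 of the 9 tested members passed the threshold of 0.05 and both were higher. Of all genes tested, 45.4% passed, 22.8% higher and 22.6% lower, so the members' share of higher calls was near that of genes in general. HOXA7 averaged 3.25 ± 0.32 CPM in number 2 and 2.03 ± 0.39 CPM in number 1 (SD, n = 3 each), which is 0.66 on the log2 scale (SE 0.23, edgeR adjusted p = 0.0374). HOXA11 averaged 30.4 ± 3.03 CPM in number 2 and 24.2 ± 1.64 CPM in number 1 (SD, n = 3 each), which is 0.33 on the log2 scale (SE 0.12, edgeR adjusted p = 0.0488). Each n counts 1 library of each group label, not cultures known to be grown apart. Both calls sat close to the threshold. Neither passed in DESeq2 (adjusted p = 0.243 for HOXA7 and 0.127 for HOXA11), and neither passed when either shCtrl library or either shA5 library was left out.

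The 3 most abundant members did not pass. HOXA9 averaged 76.7 ± 1.78 CPM in number 2 and 71.1 ± 2.80 CPM in number 1 (SD, n = 3 each), a log2 fold change of 0.11 with a 95% interval of -0.08 to 0.30 (edgeR adjusted p = 0.315). PBX3 averaged 83.9 ± 2.74 CPM in number 2 and 74.2 ± 2.08 CPM in number 1, a log2 fold change of 0.18 with an interval of -0.01 to 0.36 (edgeR adjusted p = 0.113). HOXA10 averaged 73.3 ± 5.09 CPM in number 2 and 75.1 ± 2.83 CPM in number 1, a log2 fold change of -0.04 with an interval of -0.23 to 0.16, and its sign turned to 0.03 with total-count scaling. The intervals leave room for a log2 difference of up to 0.30 in HOXA9 and 0.36 in PBX3. PBX3 passed with total-count scaling (0.25, edgeR adjusted p = 0.0409). HOXA5 had a log2 fold change of 0.59 (interval -0.07 to 1.25) and HOXA6 of -0.46 (interval -1.24 to 0.32), and neither passed. HOXA3 had 0.28 and HOXA4 -0.05, and total-count scaling turned the sign of HOXA4 to 0.02.

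In CPM, 5 of the 9 tested members had every number 2 library above every number 1 library (HOXA5, HOXA7, HOXA9, HOXA11 and PBX3), where 28.6% of all genes tested did, and HOXA6 had the opposite order, as 29.1% of all genes tested did. The median log2 fold change was 0.18 over the 9 members and 0.01 over all genes tested. The deposited TPM values gave the same order for HOXA7, HOXA9, HOXA11 and PBX3 and added HOXA10. Summed over its transcripts, HOXA10 was at 47.9 to 49.9 TPM in number 2 and 43.0 to 45.6 TPM in number 1. Its largest coding transcript, HOXA10-201, overlapped, at 32.1 to 34.6 TPM in number 2 and 32.2 to 32.5 TPM in number 1. The order of HOXA10 thus depends on the transcripts counted. The 28.6% and 29.1% of all genes are for CPM, and no such share is given for TPM. HOXA5 overlapped in TPM, at 1.25 to 2.71 TPM in number 2 and 0.63 to 2.43 TPM in number 1. Its coding HOXA5-201 did not, at 1.25 to 1.45 TPM in number 2 and 0.63 to 0.91 TPM in number 1. The noncoding HOXA5-202, with 0 to 2.35 counts per library, added 0 to 1.64 TPM. Over the same libraries, the summed monocytic and myeloid markers were at 3770 to 3902 TPM in number 2 and 3213 to 3333 TPM in number 1. LYZ (lysozyme) alone was at 1299.5 to 1359 TPM in number 2 and 822 to 855 TPM in number 1, and without LYZ the sums overlapped, at 2446 to 2543 TPM in number 2 and 2388 to 2487 TPM in number 1. In edgeR, 3 of these 12 markers were called higher in number 2 and 3 lower, among them CD14 (-0.72) and ITGAM (-0.65), with a list median of -0.02. The 5 stem and progenitor markers, 3 of them under 1 TPM throughout, summed to 27.6 to 31.7 TPM in number 2 and 23.8 to 26.0 TPM in number 1. Most of that sum was GATA2, at 26.1 to 30.2 TPM in number 2 and 22.8 to 24.5 TPM in number 1, whereas its CPM was lower in number 2 within each group and its edgeR log2 fold change was -0.12. The part of these markers in the difference was not tested.

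**Figure D3:**
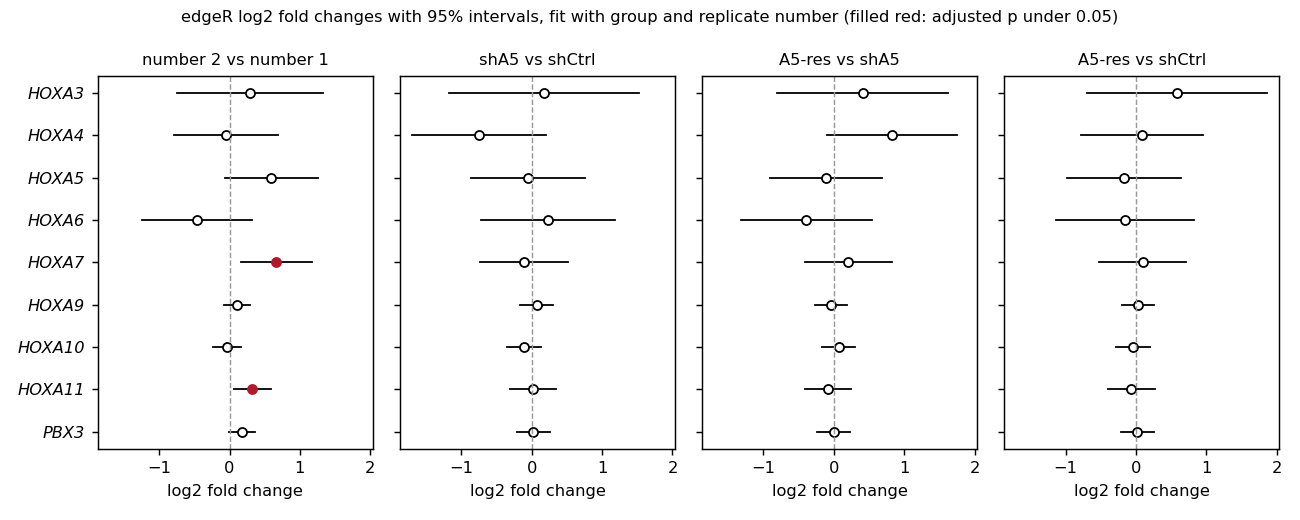
edgeR log2 fold changes of the 9 tested genes with 95% intervals, from the fit with group and replicate number, in 4 comparisons; filled red points passed an adjusted p of 0.05. HOXA7 (0.66) and HOXA11 (0.33) passed for number 2 against number 1, and no member passed between group labels.

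Between the group labels, no member passed the test. ALKBH5 RNA followed the replicate number and not these labels, so the label comparisons cannot bound an effect of its loss. HOXA9 in shA5 against shCtrl had a log2 fold change of 0.07 with a 95% interval of -0.16 to 0.30 in the fit that also holds the replicate number, and the corresponding interval without it was -0.34 to 0.48. HOXA10 had -0.11 (-0.35 to 0.13), HOXA11 0.02 (-0.31 to 0.35) and PBX3 0.02 (-0.21 to 0.25) in the fit with the number. These 4 genes were thus bounded to within 0.35 on the log2 scale in either direction, a limit that rests on that fit (without the number, HOXA11 had an interval of -0.63 to 0.65). edgeR called 0 of 9 members and 0% of all 14497 genes without the replicate number, with 38 genes and no member at an unadjusted p under 0.05. With the replicate number as a block it called no member and 0.0069% of genes. DESeq2 and limma-voom also called no member, with 21 and 43 genes at an unadjusted p under 0.05.

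HOXA4, an anterior member of the cluster, had the widest difference between these labels. Its 2 shA5 libraries lay below its 2 shCtrl libraries, at 10 to 15 counts in shA5 and 18 to 19 counts in shCtrl. Without the replicate number, the log2 fold change was -0.76 (SE 0.43, edgeR adjusted p = 1), and it ran from -1.01 to -0.46 with 1 library left out. HOXA10 was also lower in both shA5 libraries than in both shCtrl libraries, by far less, and no member was higher without overlap. Over all genes tested, 8.17% were lower and 9.3% higher without overlap. The median over the 9 members was 0.01, against -0.03 over all genes tested.

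For A5-res against shA5, HOXA4 again had the widest difference, with both A5-res libraries above both shA5 libraries. Without the replicate number, its log2 fold change was 0.84 (SE 0.42, edgeR adjusted p = 1.00), running from 0.63 to 1.09 with 1 library left out, and this comparison shares the shA5 libraries with the preceding one. It was the only member without overlap, where 5.39% of all genes tested were higher and 6.53% lower without overlap. HOXA9 had -0.04 (95% interval -0.27 to 0.18), HOXA10 0.07 (-0.17 to 0.31), HOXA11 -0.09 (-0.41 to 0.24) and PBX3 0.00 (-0.23 to 0.23) in the fit with the replicate number. edgeR called 0 of 9 members and 0% of all genes, with or without the replicate number, with no member and 43 genes (290 with the number) at an unadjusted p under 0.05. DESeq2 and limma-voom called no member, with 29 and 45 genes at an unadjusted p under 0.05. The median was 0.00 over the 9 members and 0.01 over all genes tested.

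For A5-res against shCtrl, all 9 tested members overlapped between the groups, where 3.98% of all genes tested were higher and 6.15% lower without overlap. HOXA9 had a log2 fold change of 0.03 (95% interval -0.20 to 0.25), PBX3 0.02 (-0.21 to 0.25) and HOXA4 0.09 (-0.78 to 0.96) in the fit with the replicate number. HOXA3 had the widest value, 0.58, on 6 to 14 counts per library, with an interval of -0.69 to 1.86, and without the replicate number it ran from 0.12 to 1.07 with 1 library left out. edgeR called 0 of 9 members and 0% of genes without the replicate number, with no member and 46 genes at an unadjusted p under 0.05, and no member and 0.0069% of genes with it. DESeq2 and limma-voom called no member, with 25 and 48 genes at an unadjusted p under 0.05. The median was 0.02 over the 9 members and -0.01 over all genes tested, and the libraries are those of the comparisons above.

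The transcripts behind each gene level differed in how much they concentrated. HOXA10-201, a coding transcript that starts beside the printed window, held 86.1% of HOXA10 counts, and HOXA11-201 held 93.9% of HOXA11 counts. HOXA9 was divided over more forms. The coding transcripts HOXA9-202 and HOXA9-201, which both start beside the printed window, held 36.2% and 33.3% of its counts. The other 4 HOXA9 transcripts, annotated as noncoding and starting farther upstream, held 27.2% to 34.4% of HOXA9 counts per library. Among them, HOXA9-206 held 15.6%, 23.0% and 16.3% in the number 2 libraries of A5-res, shA5 and shCtrl, and 9.40%, 20.9% and 12.2% in the number 1 libraries. The share of HOXA9-206 was highest in the shA5 library within each number. In the same order of labels, HOXA9-204 held 8.64%, 9.09% and 15.4% in number 2, and 18.3%, 6.22% and 13.8% in number 1. The 4 transcripts together held 27.2%, 34.4% and 34.1% in number 2, and 28.6%, 28.9% and 28.0% in number 1. No test was run on transcript shares, since the estimates depend on how reads that fit several transcripts were divided.

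For PBX3, the coding transcript PBX3-201 held 57.7% of counts and PBX3-202, annotated for nonsense-mediated decay, 16.2%. PBX3-204, also coding, varied widely among libraries, with 18.8%, 16.1% and 8.73% in the number 2 libraries of A5-res, shA5 and shCtrl, and 2.84%, 14.2% and 4.32% in the number 1 libraries. The 2 A5-res libraries thus held the highest and the lowest share. In HOXA6 the noncoding HOXA6-202 held 54.7% of the few counts. In HOXA4 all 15 counts of the shA5 number 2 library were given to HOXA4-201, and the other libraries gave theirs to HOXA4-203 and HOXA4-204. Reads of HOXA genes and their antisense neighbors cannot be told apart without strand, which the sources used here do not state, and the 7 noncoding genes of the locus that were listed are not analysed here.

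**Figure D4:**
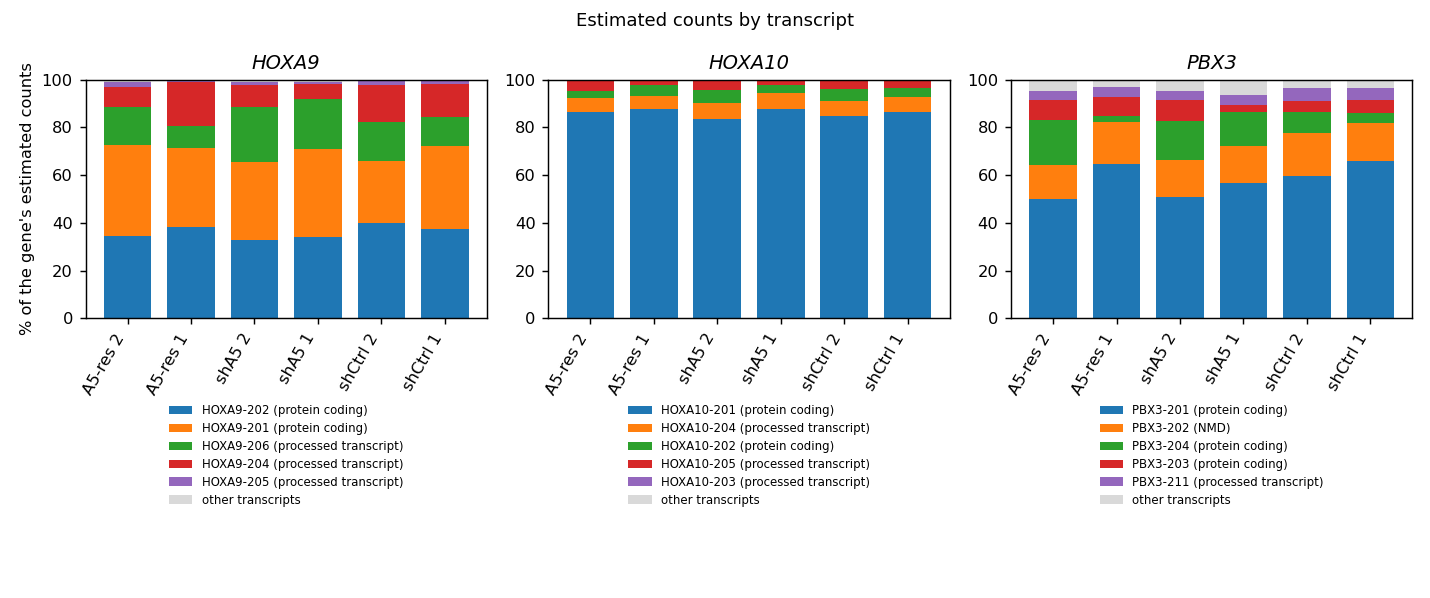
Share of the estimated counts of HOXA9, HOXA10 and PBX3 given to each transcript, in percent, for each library (group label and replicate number). HOXA10 rests mostly on HOXA10-201 (86.1% over all libraries), whereas HOXA9 and PBX3 are divided over several forms.

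Other genes of the pathway were read from the same fits. Between group labels, edgeR called 0 genes of the 6 related lists, with or without the replicate number. None of them had an unadjusted p under 0.05 without the number, and with it PBX2 (0.47) and FLT3 (-0.57) did in shA5 against shCtrl, FLT3 being named after its value was seen. Between number 2 and number 1, HOXA13, HOXB4 and HOXB3 passed and were higher in number 2, with edgeR log2 fold changes of 0.42 for HOXA13, 0.58 for HOXB4 and 0.48 for HOXB3, while most other HOX genes did not pass the filter on low counts. By edgeR, 3 of 10 tested TALE genes were higher in number 2 and 0 lower, where 22.8% of all genes tested were higher and 22.6% lower. The 3 were MEIS3 (0.98), MEIS2 (0.56) and IRX3 (0.26), and 4 of the 10 had an unadjusted p under 0.05. Of the genes that flank the cluster, 4 were tested, with SKAP2 higher (0.52) and JAZF1 lower (-0.49), beside the same shares of all genes. The median log2 fold change was 0.21 over the TALE genes and 0.05 over the flanking genes, against 0.01 over all genes tested.

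Other MLL fusion targets moved both ways, with 4 higher and 4 lower in number 2 among 17 tested, where 22.8% of all genes tested were higher and 22.6% lower. LMO2, a transcriptional cofactor of early blood cells, had 0.80 and RUNX2 had -0.78. Among 11 tested genes reported downstream of HOXA9 and MEIS1, 2 were higher and 5 lower, beside the same 22.8% and 22.6% of all genes, with CCND1 (cyclin D1) at -1.33, ID2 at -0.80, SOX4 at -0.74 and CYBB, a subunit of the phagocyte oxidase, at 0.80. Among 19 tested members of the MLL fusion complex and regulators of HOXA genes, 4 were higher and 6 lower, against the same shares of all genes. PSIP1, the chromatin tether of MLL and menin, had 1.93, the widest of that list, and MEN1, which encodes menin, had -0.40. The medians of these 3 lists were 0.02, -0.21 and -0.07 in the order given.

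The genes whose pattern over the 6 libraries lay nearest to that of HOXA9 were CNOT4, FLI1 and PATL1, with root mean square differences of centered log2 CPM of 0.014, 0.021 and 0.023. Over the 10593 protein-coding genes compared, the median difference from HOXA9 was 0.21. FLI1 was at 126, 129 and 128 CPM in the number 2 libraries of A5-res, shA5 and shCtrl, and at 122, 124 and 117 CPM in the number 1 libraries, the same narrow band in relative terms. Nearest to PBX3 were EVI5, FAM193A and TRMT10B, at 0.022, 0.024 and 0.027. Among the members, HOXA9 and PBX3 were the nearest pair, at 0.067, and HOXA9 and HOXA10 differed by 0.11. The measure rests on 6 libraries and says nothing beyond their values.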

How the data were processed

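Per the submitters' processing notes, the authors used CASAVA and kallisto 0.43.1 with the build hg38; the sources used here do not give its options or strand use. The deposited tables hold estimated counts and TPM for 179973 Ensembl transcripts per library. TPM is the authors' value per length and was summed per gene to order levels. Estimated counts were summed with GENCODE 29 (163714 transcripts, 91.0%, matched) and rounded; unmatched transcripts, 3.13% to 3.32% of counts, were left out. No molecular identifiers are mentioned, so counting limits cover counting error only.

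Genes (14497 after filterByExpr) were tested with edgeR 4.0.16 (R 4.3.3, TMM, quasi-likelihood, all 6 libraries, threshold 0.05 after Benjamini-Hochberg adjustment). Label comparisons used groups alone, with the replicate number of the titles as a block in an alternative; number comparisons used group and number. The numbers pair the libraries in these data: deviations from group means of same-numbered libraries correlated at 0.60 to 0.73, decided without regard to calls. Adding the block took the biological coefficient of variation to 10.6%, against 27.7% without. DESeq2 1.42.0, limma-voom (limma 3.58.1), other scalings, filters and left-out libraries were tried. Likeness used log2 CPM with a prior count of 2 and genes of at least 5 CPM on average.

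The members and lists were chosen with earlier results of these data known. Named genes are the members, ALKBH5, up to 4 genes per list with the smallest p, and the 3 genes nearest to HOXA9 and PBX3; MEIS1 was too low for a likeness. PBX2, TGIF1 and transcripts beyond the largest of each member were named, and the marker sum without LYZ was added, after their values were seen. Promoter sequences are from RefSeq.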

Additional observations from a re-analysis of the deposited data

How the results depend on the processing

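No member passed between group labels in any alternative run, and the block changed no member's call. With the replicate block, edgeR called 1 gene in shA5 against shCtrl and 1 in A5-res against shCtrl, where it called 0 without the block; DESeq2 with the block, chosen after seeing the data as was limma-voom with the block, called 1 in shA5 against shCtrl. With the block and 1 library left out, members called stayed at 0, while genes called ran from 2 (without shCtrl number 2) to 404 (without A5-res number 1) in shA5 against shCtrl, from 0 (without either shCtrl library) to 966 (without A5-res number 2) in A5-res against shA5, and from 2 (without shCtrl number 1) to 751 (without A5-res number 1) in A5-res against shCtrl. For number 2 against number 1, RLE size factors left 1 member called, DESeq2 0 and coding transcripts alone 0. Genes called ran from 3949 to 6764 with 1 library left out, lowest without shA5 number 2, and members called from 0 to 2. In the remaining reversals the values lay near 0 and the cause was not tested. For PBX3 in A5-res against shA5, total-count scaling gave -0.012, limma-voom -0.0091, a filter of 1 CPM -0.00034, the replicate block -0.0034 and limma-voom with the block -0.0043. Total-count scaling gave 0.023 for HOXA4 and 0.034 for HOXA10 in number 2 against number 1. Coding transcripts alone gave 0.021 for HOXA5 and 0.049 for HOXA9 in A5-res against shA5, and 0.014 for HOXA10 in A5-res against shCtrl.

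Leaving out 1 library without the block leaves a group with the library of 1 number, which is then assumed to vary like the others. The log2 fold changes whose sign turned then ran as follows. In A5-res against shA5 they were -0.0035 to 0.14 for HOXA10, -0.24 to 0.057 for HOXA11, -0.036 to 0.80 for HOXA3, -0.66 to 0.34 for HOXA5, -0.70 to 0.0066 for HOXA6, -0.14 to 0.55 for HOXA7, -0.094 to 0.0044 for HOXA9 and -0.14 to 0.13 for PBX3. In A5-res against shCtrl they were -0.12 to 0.023 for HOXA10, -0.30 to 0.23 for HOXA11, -0.17 to 0.39 for HOXA4, -0.72 to 0.28 for HOXA5, -0.45 to 0.25 for HOXA6, -0.34 to 0.67 for HOXA7, -0.020 to 0.11 for HOXA9 and -0.12 to 0.15 for PBX3. In shA5 against shCtrl they were -0.22 to 0.33 for HOXA11, -0.24 to 0.63 for HOXA3, -0.33 to 0.16 for HOXA5, -0.15 to 0.61 for HOXA6, -0.52 to 0.51 for HOXA7 and -0.037 to 0.095 for PBX3. In number 2 against number 1 they were -0.098 to 0.014 for HOXA10, -0.098 to 0.75 for HOXA3 and -0.24 to 0.24 for HOXA4. Low counts limit HOXA3 to HOXA7, and MEIS1 did not pass the filter on low counts.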
